A study of Mus musculus with 6 samples.

Results

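Galectin-1, annexins and S100 proteins were described here in naive CD8 T cells sorted for bright or dim green fluorescence of a Nur77 reporter. The set was named by symbol and held 10 genes: Lgals1, Lgals3, Anxa1, Anxa2, Anxa5, Anxa6, S100a4, S100a6, S100a10 and S100a11. Of these, 7 were among the 11162 genes of the deposited table, and Lgals3, S100a4 and S100a6 were not analysed here. The genes were selected on their RPKM in the contrast of the populations, with its results known, so the differences of its genes are given as a description. No p-value is given for them, and where limma's threshold or a 95% interval is printed for one of them, it describes the size against the spread and tests nothing. RNA came from spleen cells of mice carrying the reporter transgene Tg(Nr4a1-EGFP)GY139Gsat, in which regulatory sequence of Nr4a1, the gene of Nur77, drives green fluorescent protein. Both populations were sorted on naive-cell markers, among them CD8+, CD44lo and Qa2hi, with the OT-I marker, the name of a transgenic T-cell receptor. One population, GFP-hi, was then sorted as Nur77-GFPhi and the other, GFP-lo, as Nur77-GFPlo, with 3 libraries of each and no treatment. The age of the mice, any pooling of animals and whether libraries came from separate mice are not given in the sources used here, so p-values measure only the spread between these libraries, which may be technical.

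Galectins are secreted and cytosolic lectins that bind galactose-containing sugars on glycoproteins, and galectin-1, the product of Lgals1, crosslinks T-cell surface glycoproteins such as CD7, CD43 and CD45. Annexins are cytosolic proteins that attach to acidic phospholipids of membranes when calcium rises. S100 proteins are small dimeric proteins, most but not all of them calcium sensors. Some of them clamp pairs of annexins: S100A10 holds annexin A2 and S100A11 holds annexin A1. In T cells several genes of these families are known for being low in naive cells and high in activated and memory cells.

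Values were RPKM, reads per kilobase of gene and per sequencing depth, so levels can be compared between genes. The gene lengths used are not given, so small differences in level between genes are not settled. The recovered depth was 26170000 to 35940000 reads a library, so that 1 RPKM of a transcript of 1 kilobase rested on 26.17 to 35.94 reads. Cd8b1, the most abundant of the naive CD8 identity genes, had 785 to 839 RPKM, and Cd44, which is high after antigen experience, had 2.17 to 2.62 RPKM. Of 8 naive CD8 markers 1 was called, beside 3.95% of all genes. It was the cytokine receptor gene Il7r, which was lower in GFP-hi (64.0 against 112 RPKM on average). Neither Nr4a1 nor the GFP entry separated the populations. Nr4a1 had 37.0 to 90.9 RPKM in GFP-hi and 33.8 to 84.9 RPKM in GFP-lo libraries, and GFP had 214 to 262 RPKM and 191 to 216 RPKM, so the transcripts gave no check of the labels. The heat-shock genes Hspa1a and Hspa1b were highest in GFP-hi replicate 2 (1100 and 1904 RPKM) and GFP-lo replicate 2 (1234 and 2133 RPKM), and calls that end without these 2 libraries are given with their values below. In such bulk samples, fewer cells expressing a gene and less RNA per cell cannot be told apart.

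The 7 genes covered a wide range of levels. Anxa6 was the most abundant, with a mean of 285.9 ± 18.8 RPKM (SD, n = 6 libraries), a level above 99.6% of the 9351 genes tested. S100a11 followed with 91.0 ± 7.22 RPKM and S100a10 with 90.5 ± 13.1 RPKM. Ranges of these neighbours overlapped, and S100a11 was above S100a10 in 3 of 6 libraries, namely the GFP-lo ones. Their order in RPKM thus differed between the populations. Lgals1 had 43.8 ± 17.1 RPKM and Anxa5 31.1 ± 3.46 RPKM. Their ranges overlapped too, and Lgals1 was above Anxa5 in 3 of 6 libraries, namely the GFP-hi ones. Anxa2 had 5.06 ± 2.44 RPKM and Anxa1 0.365 ± 0.236 RPKM. The ranges of Anxa6, of the S100 pair, of Lgals1 with Anxa5, of Anxa2 and of Anxa1 did not meet each other. The median level over the 6 genes with a mean of at least 1 RPKM was 67.1 RPKM, against 8.72 RPKM over all genes tested.

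**Figure D1:**
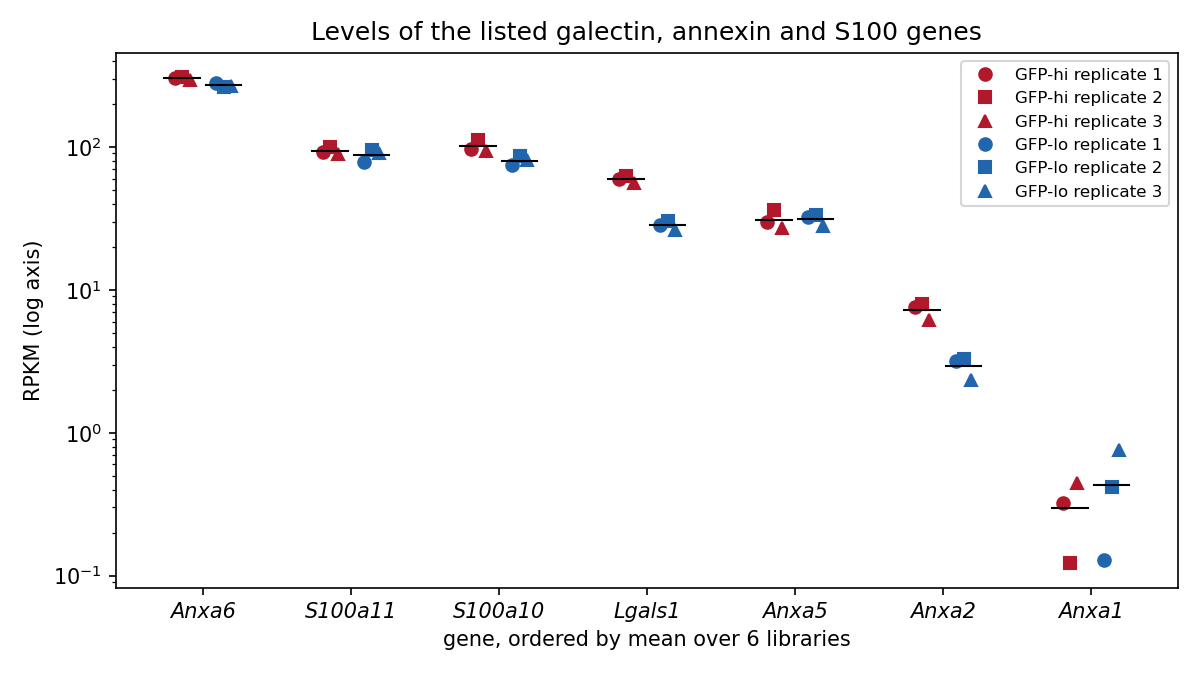
RPKM of the 7 listed genes in each library on a log axis, ordered by their mean over 6 libraries; symbols mark replicates, colours the 2 populations and black lines the group means. Lgals1 lay between 55.5 and 62.9 RPKM in GFP-hi and between 26.2 and 30.3 RPKM in GFP-lo libraries, and Anxa2 between 6.14 and 7.91 RPKM and between 2.33 and 3.26 RPKM.

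Differences are GFP-hi minus GFP-lo means of log2(RPKM + 1), a scale that understates the change of low genes. Their standard errors came from limma, a linear model fitted across all genes. A gene was counted as called at a Benjamini-Hochberg adjusted p under 0.05. Of the 6 genes that entered the fit, 2 lay past this threshold, Lgals1 and Anxa2, both higher in GFP-hi. Over all 9351 genes 3.95% were called, 2.46% higher and 1.49% lower, and in the 4 libraries without the 2 high in heat-shock genes 1.08% were called. In 4 of the 6 genes (Lgals1, Anxa2, S100a10 and Anxa6) every GFP-hi library lay above every GFP-lo library, and in none did GFP-lo lie above. Over all genes the groups did not overlap in 26.9%, with GFP-hi above in 17.1% and GFP-lo above in 9.84%. The median difference over the 6 genes was 0.24, against 0.02 over all genes. As the genes were chosen on this contrast, passing the threshold restates that choice, and nothing is read from these counts. Each of the 6 genes had more than 1 RPKM in every library of both populations, and Anxa1 was the gene left out by the minimum mean level.

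Lgals1 (Entrez 16852; mm10 chromosome 15, 78926725 to 78930465) encodes galectin-1. Its RPKM was 59.3, 62.9 and 55.5 in the GFP-hi libraries and 28.5, 30.3 and 26.2 in the GFP-lo libraries. The lowest GFP-hi library was thus well above the highest GFP-lo library. Mean RPKM was 59.2 ± 3.70 in GFP-hi and 28.4 ± 2.07 in GFP-lo (SD, n = 3 each), a ratio of 2.09. The log2 difference of 1.04 had a standard error of 0.072, and its 95% interval ran from 0.87 to 1.20. The difference was 1.04 without the 2 libraries high in heat-shock genes, and from 0.98 to 1.09 when 1 library was left out. Between 431 and 1708 reads a library stood behind these values, computed for the shortest and longest GENCODE transcripts of the gene. Other galectins were listed as well, and the most abundant was Lgals9, which encodes galectin-9. Lgals9 had 65.5, 72.7 and 73.3 RPKM in GFP-hi and 67.0, 68.4 and 70.5 RPKM in GFP-lo libraries, and its populations overlapped. The ratio of Lgals9 to Lgals1 was therefore 1.19 ± 0.113 in GFP-hi and 2.43 ± 0.229 in GFP-lo (SD, n = 3 each).

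Anxa2 (Entrez 12306; mm10 chromosome 9, 69453683 to 69491792) encodes annexin A2, which links membranes to actin at sites of vesicle traffic. Its RPKM was 7.55, 7.91 and 6.14 in GFP-hi and 3.18, 3.26 and 2.33 in GFP-lo libraries. The groups did not overlap, and replicate 3 was the lowest library of either population. Mean RPKM was 7.20 ± 0.937 in GFP-hi and 2.92 ± 0.518 in GFP-lo (SD, n = 3 each), a ratio of 2.46. The log2 difference of 1.07 had a standard error of 0.120, and its 95% interval ran from 0.79 to 1.34. The difference was 1.07 in the 4 libraries without the 2 high in heat-shock genes. With a pseudocount of 0.1 in place of 1 it was 1.28. At this low level 39 to 613 reads a library stood behind the values, depending on the transcript length taken, and the spread of Anxa2 within populations was larger than that of 91.1% of genes.

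S100a10 (Entrez 20194; mm10 chromosome 3, 93555117 to 93564645) encodes the partner of annexin A2, also called p11. It had 96.9, 111 and 93.7 RPKM in GFP-hi and 74.3, 86.0 and 80.6 RPKM in GFP-lo libraries. Every GFP-hi library lay above every GFP-lo library, by a smaller margin than for Lgals1 and Anxa2. Mean RPKM was 100.6 ± 9.33 in GFP-hi and 80.3 ± 5.82 in GFP-lo (SD, n = 3 each). The log2 difference of 0.32 had a standard error of 0.082, and its 95% interval ran from 0.13 to 0.51. S100a10 lay short of the threshold. The ratio of Anxa2 to S100a10 within a library was 0.0779, 0.0711 and 0.0655 in GFP-hi and 0.0428, 0.0380 and 0.0289 in GFP-lo libraries. Anxa2 was thus far less abundant than its S100 partner gene in each library, and the ratio was higher in all GFP-hi libraries.

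S100a11 (Entrez 20195; mm10 chromosome 3, 93520496 to 93526288) lies next to S100a10, with 28828 bases between the genes. It had 91.6, 101 and 89.6 RPKM in GFP-hi and 78.7, 94.8 and 90.9 RPKM in GFP-lo libraries. These groups overlapped, and GFP-lo replicate 1 stood lowest. The log2 difference of 0.09 had a standard error of 0.081. Its 95% interval ran from -0.09 to 0.28. The sole GENCODE transcript of S100a11 is 511 bases long, and 1216 to 1745 reads a library stood behind its values. The ratio of S100a10 to S100a11 was 1.06, 1.11 and 1.05 in GFP-hi and 0.945, 0.907 and 0.886 in GFP-lo libraries. It was thus higher in every GFP-hi library. GENCODE transcripts of S100a10 run from 477 to 685 bases and the length used is not given. Which of the neighbours was more abundant is therefore not settled. Within 500 kb on either side of this pair RefSeq lists 16 protein-coding genes, these included. Beside the pair itself, Rptn alone was in the deposited table, at 0.968 RPKM or less.

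Promoter sequence shows how genes of the set with a large and a small difference compare at their starts. Windows of 250 bases before the RefSeq start (GRCm38.p6, the assembly behind mm10) were matched for 4 of the 7 genes, Anxa1, Anxa2, Anxa5 and S100a11. Each was searched on both strands for 6 motifs, and no other match overlapped one of AP-1, the Fos and Jun dimer, whose letters were TGANTCA. The windows of Anxa2 (chr9:69453433-69453682, plus strand) and S100a11 (chr3:93520246-93520495, plus strand) are printed 5′ to 3′ because they are the ones with AP-1 letters, which are in capitals.
Anxa2: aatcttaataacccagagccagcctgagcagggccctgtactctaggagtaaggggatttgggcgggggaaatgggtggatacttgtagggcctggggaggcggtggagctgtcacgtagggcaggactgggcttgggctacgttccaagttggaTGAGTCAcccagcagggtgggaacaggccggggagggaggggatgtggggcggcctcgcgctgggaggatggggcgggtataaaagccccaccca
S100a11: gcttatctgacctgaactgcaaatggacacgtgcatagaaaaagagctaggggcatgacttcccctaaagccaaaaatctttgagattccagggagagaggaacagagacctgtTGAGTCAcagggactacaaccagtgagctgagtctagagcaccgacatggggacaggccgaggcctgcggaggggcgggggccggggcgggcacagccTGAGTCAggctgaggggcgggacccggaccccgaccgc
The first base of the AP-1 match lay at -95 from the start in Anxa2 and at -136 and -38 in S100a11. Of 32851 windows of this length, 6.75% held at least 1 such match and 0.338% at least 2. Anxa2 and S100a11 each held 3 GC boxes, whose letters GGGCGG were present in 32.7% of windows. Anxa2 and Anxa1 each held the TATA letters TATAAA, present in 12.4%. The NFAT core GGAAA stood in Anxa1, Anxa2 and Anxa5, and in 55.6% of all windows. No window of the 4 genes held AAAGGTCA, the letters of NR4A factors such as Nur77, which 1.34% of all windows held. None held GCGTGGGCG, the letters of EGR factors, found in 0.536% of windows. The gene with a higher level in GFP-hi and the gene whose groups overlapped thus both carried AP-1 letters, and a match is not a binding site.

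Anxa6 (Entrez 11749; mm10 chromosome 11, 54978953 to 55033471) encodes annexin A6, the long annexin with a doubled core. It had 304, 307 and 294 RPKM in GFP-hi and 279.8, 263 and 267 RPKM in GFP-lo libraries. All GFP-hi libraries were above all GFP-lo libraries, although the means of 302 ± 6.67 and 269.9 ± 8.84 RPKM (SD, n = 3 each) differed by a ratio of only 1.12. The log2 difference of 0.16 (standard error 0.054, 95% interval from 0.04 to 0.28) lay short of the threshold. Its spread within populations was among the smallest, with 7.34% of genes spreading less. The ratio of Anxa6 to Anxa5 was 9.85 ± 1.24 in GFP-hi and 8.69 ± 0.808 in GFP-lo (SD, n = 3 each).

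Anxa5 (Entrez 11747; mm10 chromosome 3, 36448923 to 36475887) encodes annexin A5, which binds phosphatidylserine and is used to stain dying cells. Its RPKM was 29.9, 36.2 and 27.0 in GFP-hi and 32.5, 33.1 and 28.0 in GFP-lo libraries. The GFP-hi libraries spanned both ends of the range, and the groups overlapped entirely. The difference was -0.01 with a 95% interval from -0.27 to 0.24, and its sign was positive in 5 of 18 alternative fits.

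Anxa1 (Entrez 16952; mm10 chromosome 19, 20373434 to 20390671) encodes annexin A1, a mediator of glucocorticoid effects and the classical partner of S100A11. It was near the limit of detection, with 0.324, 0.122 and 0.446 RPKM in GFP-hi and 0.128, 0.414 and 0.757 RPKM in GFP-lo libraries. The groups overlapped, and between 1 and 33 reads a library stood behind these values, so a difference was not detectable at this depth. In each library S100a11 was thus abundant while Anxa1 stayed below 1 RPKM.

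Other genes of these families were not in the set and were tested. This list and those below were chosen with earlier results of these data known. Their calls and p-values are therefore a description of size against spread. Of 28 symbols, 8 were listed and 6 had a mean of at least 1 RPKM: Lgals4, Lgals8, Lgals9, Anxa7, Anxa11 and S100a13. None of the 6 was called in either direction by limma, beside 3.95% of all genes, and 1 had an unadjusted p under 0.05. That gene was S100a13, a small calcium sensor involved in release of growth factors lacking a signal peptide. It had 39.1, 45.2 and 42.1 RPKM in GFP-hi and 36.6, 40.1 and 34.7 RPKM in GFP-lo libraries. Its groups overlapped, and its difference of 0.18 (standard error 0.075) had a limma adjusted p of 0.23. The most abundant of the other annexins was Anxa11, with 10.6 ± 0.223 and 11.4 ± 2.65 RPKM (SD, n = 3 each) and a difference of -0.08 (limma adjusted p = 0.79). Lgals9 differed by 0.04, with a 95% interval from -0.10 to 0.18. Anxa4 (0.225 to 0.546 RPKM) and Lgalsl (0.325 to 0.702 RPKM) were listed below the minimum level.

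**Figure D2:**
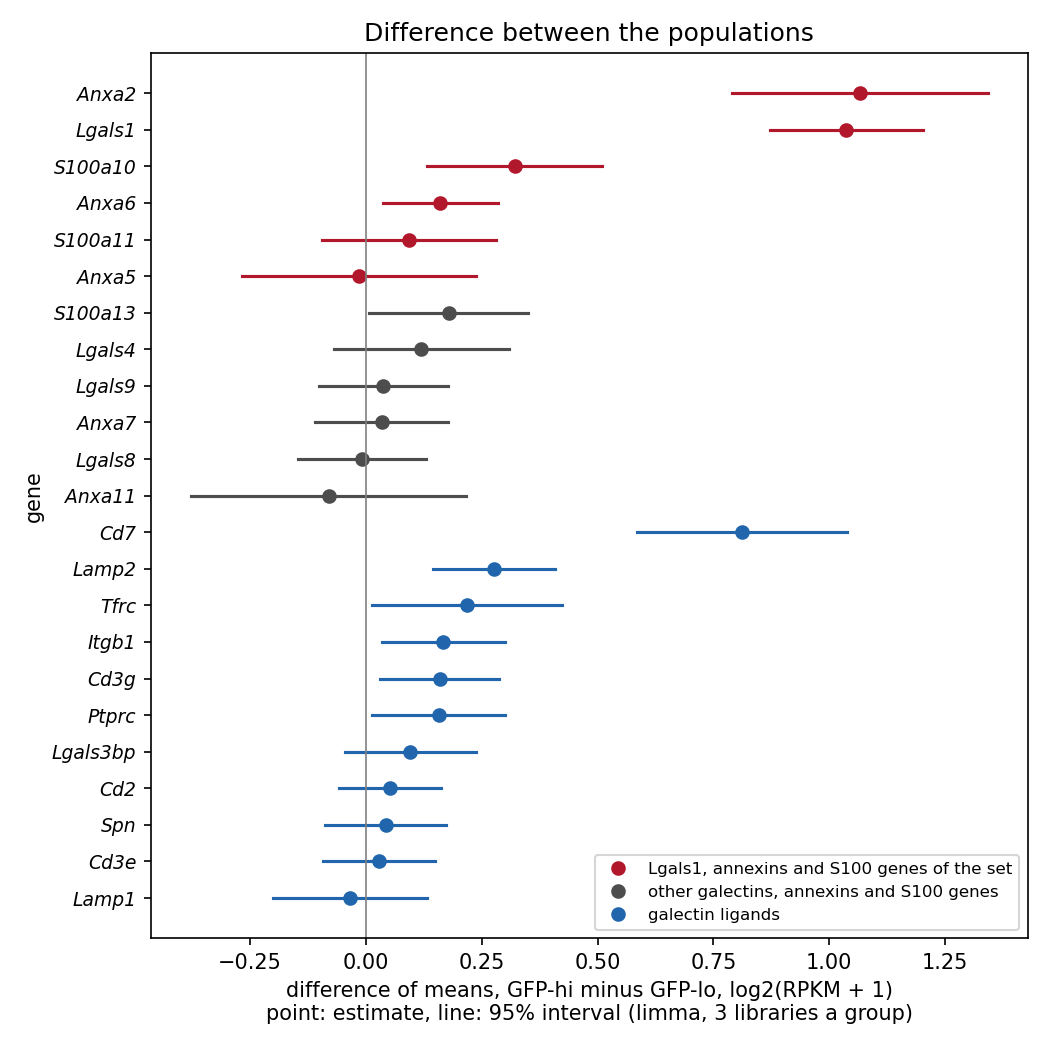
Difference of means between GFP-hi and GFP-lo on the log2(RPKM + 1) scale for the 6 genes of the set, 6 other family genes and 11 glycoproteins bound by galectins; points are estimates and lines 95% intervals from limma with 3 libraries a group. Anxa2 (1.07) and Lgals1 (1.04) stood farthest to the right, followed by the galectin ligand Cd7 (0.81), while the 6 other family genes lay between -0.08 and 0.18.

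Glycoproteins that galectins bind came next, from a list of 11 genes, all of them listed and tested. Earlier results of these data were known when it was chosen, so its calls are a description. By limma 2 were higher in GFP-hi and none lower, and 10 of the 11 differences were positive, with a median of 0.16 against 0.02 over all genes. Over all 9351 genes 2.46% were called higher and 1.49% lower, and 5187 differences were positive. The galectin-1 receptor gene Cd7 had 201, 205 and 165 RPKM in GFP-hi and 119, 105 and 100.3 RPKM in GFP-lo libraries. Its groups were far apart, with means of 190.5 ± 22.0 and 107.8 ± 9.55 RPKM (SD, n = 3 each). On the log2 scale Cd7 differed by 0.81 ± 0.098 (standard error; adjusted p = 0.0048 by limma). It did not pass in the 4 libraries without the 2 high in heat-shock genes, where the difference was 0.74 (limma adjusted p = 0.064). Lamp2, a glycoprotein of the lysosomal membrane, had 5.46, 5.52 and 5.22 RPKM against 4.39, 4.29 and 4.17 RPKM, a difference of 0.28 (limma adjusted p = 0.039). Lamp2 no longer passed on leaving out any of the 6 libraries, at adjusted p from 0.069 to 0.14 by limma, or in the 4 libraries (0.17). The other galectin-1 ligands on T cells did not pass. Ptprc, the gene of CD45, differed by 0.16 (limma adjusted p = 0.22), and Spn, the gene of CD43, by 0.04 (limma adjusted p = 0.74). The ratio of Lgals1 to Cd7 was 0.295, 0.306 and 0.336 in GFP-hi and 0.241, 0.290 and 0.262 in GFP-lo libraries, with GFP-hi above GFP-lo by a narrow margin.

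Binding partners of S100 proteins and annexins were a list of 21 genes, of which 16 were listed and 12 tested. None was called by limma, beside 3.95% of all genes, 2 had an unadjusted p under 0.05, and the median difference was 0.11. Ahnak, a giant scaffold bound by the annexin A2 and S100A10 complex, had 8.96, 6.81 and 5.56 RPKM in GFP-hi and 9.53, 6.41 and 5.94 RPKM in GFP-lo libraries. It varied more between libraries than between populations (difference -0.03, limma adjusted p = 0.95). Myh9, a nonmuscle myosin heavy chain bound by S100A4, was the most abundant partner and differed by -0.02 (limma adjusted p = 0.90).

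Genes of antigen-experienced T cells were then counted, since several genes of the set are known for a rise in such cells. Of 20 such genes, all tested, 3 were higher (Vim, Lsp1 and Id2) and 1 was lower (Cxcr3) by limma. Among the 20 differences 12 were negative, with a median of -0.02. Over all 9351 genes 2.46% were called higher and 1.49% lower, and 5187 differences were positive. Vim, the gene of the intermediate filament vimentin, had 37.5, 41.4 and 34.7 RPKM in GFP-hi and 28.4, 28.7 and 27.4 RPKM in GFP-lo libraries (difference 0.41, limma adjusted p = 0.019). Lsp1, an actin-binding leukocyte protein gene, had 79.7, 81.8 and 77.6 RPKM against 66.1, 63.7 and 65.0 RPKM (difference 0.29, limma adjusted p = 0.019). Id2, an inhibitor of E-protein transcription factors, had 36.6, 38.4 and 33.0 RPKM against 28.9, 28.9 and 25.5 RPKM (difference 0.36, limma adjusted p = 0.040). In all 3 every GFP-hi library lay above every GFP-lo library, as in 17.1% of all genes tested. Cxcr3, a chemokine receptor gene of effector and memory cells, went the other way, with 8.87, 9.12 and 12.6 RPKM against 23.5, 22.3 and 31.4 RPKM (difference -1.26, limma adjusted p = 0.0054). Cd44 differed by -0.06 (limma adjusted p = 0.69), Ahnak was given above, and Crip1, often high beside S100 genes in memory cells, differed by -0.19 (limma adjusted p = 0.59). The calls of the 3 higher genes did not hold without some of the libraries. By limma Vim had an adjusted p of 0.060 to 0.082 on leaving out GFP-hi replicate 1 or any GFP-lo library, and 0.075 in the 4 libraries without the 2 high in heat-shock genes. Lsp1 had 0.065 to 0.092 on leaving out GFP-hi replicate 1 or 3 or GFP-lo replicate 2 or 3, and 0.10 in the 4 libraries. Id2 had 0.080 to 0.13 on leaving out any library but GFP-hi replicate 3, and 0.15 in the 4 libraries. Cxcr3 was called on leaving out any single library. In the 4 libraries it had 0.050, just short of the threshold, and was not called.

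**Figure D3:**
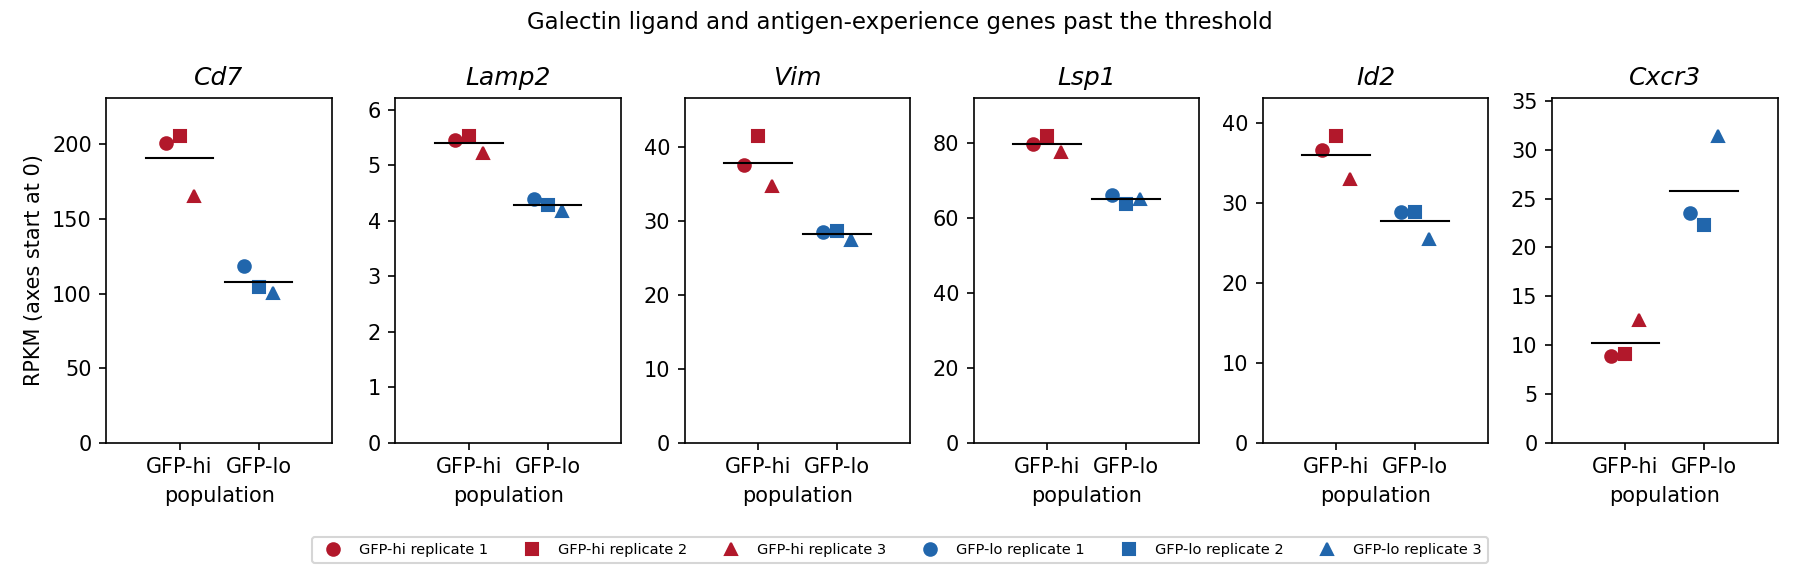
RPKM of the 6 galectin ligand and antigen-experience genes that passed the threshold, by library, on axes that start at 0; symbols mark replicates and black lines group means. In Cd7, Lamp2, Vim, Lsp1 and Id2 every GFP-hi library lay above every GFP-lo library, and Cxcr3 was the reverse, at 8.87 to 12.6 RPKM against 22.3 to 31.4 RPKM.

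Cell cycle genes were also compared between the populations. Of 18 listed genes 12 were tested and 11 were higher in GFP-hi by limma, beside 2.46% of all genes. The median difference was 1.24. Means in GFP-lo were under 1 RPKM for Mki67 (0.218), Pclaf (0.123), Birc5 (0.295), Bub1b (0.565), Cdca8 (0.628), Ccnb2 (0.673), Top2a (0.771) and Tyms (0.971). These genes met the minimum mean level only through GFP-hi, so nothing is read from the count. Stmn1, Rrm2, Cdc20 and Tubb5 were above 1 RPKM in every library. At a minimum of 5 RPKM 3 genes were tested, and all 3 were called higher. The 5 with the lowest p were Ccnb2 (cyclin B2, 1.65), Stmn1 (the tubulin-binding stathmin, 1.66), Rrm2 (a ribonucleotide reductase subunit, 1.39), Birc5 (survivin, 1.10) and Top2a (topoisomerase, 1.30). In the 4 libraries without the 2 high in heat-shock genes 7 of the 12 were called, all higher, beside 1.08% of all genes. There Bub1b (limma adjusted p = 0.083), Cdc20 (0.068), Cdca8 (0.069) and Tubb5 (0.14) no longer passed, and all 12 differences stayed positive. The summed level of the 18 genes was 108 to 116 RPKM in GFP-hi and 63.4 to 65.1 RPKM in GFP-lo libraries, and Tubb5, at 48.0 to 61.8 RPKM, made up most of it. Tubb5 also no longer passed on leaving out any single library except GFP-lo replicate 1 (limma adjusted p from 0.052 to 0.13), and Bub1b on leaving out GFP-lo replicate 2 (0.053). Their part in the differences of Lgals1 and Anxa2 was not tested. A list of heat-shock genes, immediate early genes and Socs3, named handling genes here, summed to 2686, 6592 and 2763 RPKM in GFP-hi libraries. In GFP-lo libraries it summed to 3584, 7466 and 3566 RPKM. Whether handling of the cells set these levels was not tested. Of 14 tested, 11 had lower means in GFP-hi, with a median difference of -0.30. By limma 1 was called, Socs3, which was lower (difference -0.93), beside 1.49% of all genes. In the 4 libraries without the 2 high in heat-shock genes 4 were called, all lower, beside 1.08% of all genes. Socs3 no longer passed on leaving out GFP-hi replicate 3 or any GFP-lo library (limma adjusted p from 0.053 to 0.083), when none of the list was called. With the mean of this list as a covariate the differences of Lgals1 and Anxa2 were 1.08 and 1.12. In that fit S100a10 differed by 0.38. As most of the list was lower in GFP-hi, the covariate overlapped with the sort, and the fit tests no cause.

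Markers of other cells were sparse. Of 12 myeloid markers 3 were listed, summing to 20.5 to 25.8 RPKM in GFP-hi and 20.6 to 22.5 RPKM in GFP-lo libraries, most of it from Cst3, while Itgam had 0.160 to 0.431 RPKM. Of 6 B cell markers 2 were listed, at 12.5 to 14.2 RPKM against 10.9 to 11.3 RPKM, led by Cd79b, and these sums did not overlap. Of 6 dendritic cell markers Flt3 alone was listed, at 0.0860 to 0.432 RPKM against 0.0180 to 0.619 RPKM. Of 8 red cell and platelet markers Hba-a1 alone was listed, at 0.0470 to 1.94 RPKM against 0.393 to 1.48 RPKM. Of 7 stromal markers 2 were listed, at 29.3 to 30.4 RPKM against 27.7 to 32.6 RPKM. Nearly all of it came from Pecam1, while Col3a1 had 0.0290 to 0.285 RPKM. Of 6 NK cell markers Eomes alone was listed, at 5.49 to 8.14 RPKM against 5.86 to 7.68 RPKM. Of 6 CD4 and regulatory T cell markers Ctla4 and Izumo1r were listed, at 4.63 to 6.80 RPKM against 1.89 to 2.97 RPKM. Izumo1r was called and higher in GFP-hi. Its GFP-lo mean was 0.959 RPKM, so it met the minimum mean level only through GFP-hi, and nothing is read from its call. The defining markers Lyz2, Csf1r, Ncr1, Cd4 and Foxp3 were not analysed here. No marker listed was at 0 in any library, and the part of such cells in the differences of Lgals1 and Anxa2 was not tested.

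Genes with the most similar pattern were sought by the root mean square difference of log2(RPKM + 1), each gene centred on its mean over the 6 libraries, so that a small value means a close match in shape and size. For Lgals1 the closest was Itm2a, an integral membrane protein gene of T cells, at 0.069. Itm2a had 42.5, 49.0 and 41.8 RPKM in GFP-hi and 20.7, 22.5 and 21.7 RPKM in GFP-lo libraries. Then came Izumo1r (0.102), Cd160 (0.105), Smo (0.115) and Cd200 (0.125). For Anxa2 the closest was Ndrg1 at 0.098, with 5.39, 6.07 and 3.95 RPKM in GFP-hi and 1.91, 1.77 and 1.21 RPKM in GFP-lo libraries. As for Anxa2, replicate 3 was the lowest library of each population. Izumo1r (0.105), Smo (0.110), Cd160 (0.119) and Sox4 (0.122) followed. Izumo1r, Cd160 and Smo thus stood in both groups of nearest genes. The GFP-lo means of Izumo1r (0.959 RPKM), Smo (0.540) and Cd200 (0.549) were under 1 RPKM. These genes met the minimum mean level only through GFP-hi. The measure rewards genes with the same difference between populations, and all 6 points share the 2 sorts, so the matches are a description.

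**Figure D4:**
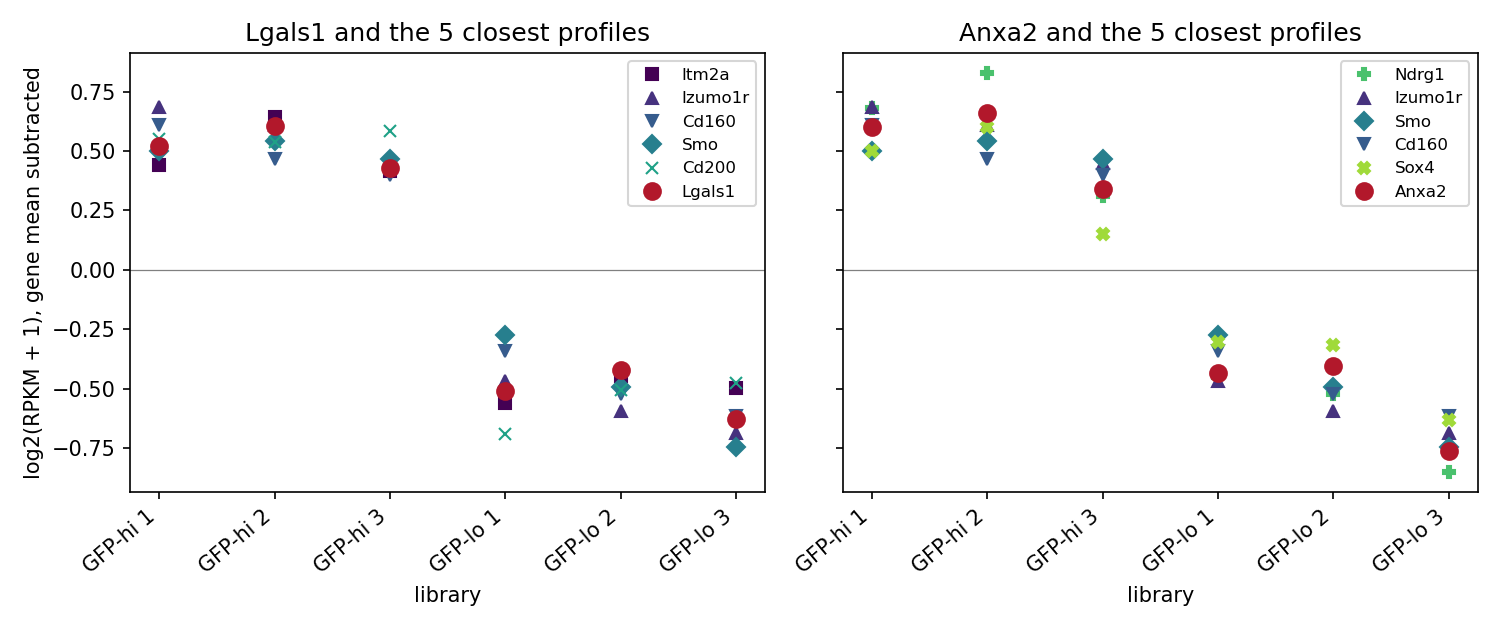
Values of log2(RPKM + 1) with each gene's mean subtracted, by library, for Lgals1 and Anxa2 (large red points) and the 5 genes nearest to each. All genes shown lay above 0 in the 3 GFP-hi and below 0 in the 3 GFP-lo libraries, and Itm2a (0.069 from Lgals1) and Ndrg1 (0.098 from Anxa2) were the closest.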

How the data were processed

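Per the labels' protocols, sorted cells were lysed and frozen, and cDNA and libraries were made with the SMART-seq and Nextera XT kits. The submitters' processing notes name STAR and mm10. Read counter, gene models and how genes came to be listed are not given in the sources used here. Per the file headers, the authors deposited RPKM values, 1 column a library, and all 6 were used. Depth was recovered from the step of 1 read in 262 to 277 low values a library of genes with 1 transcript in GENCODE M21. Of these values 91.8% to 93.9% came within 0.1 of a whole read. Replicate libraries differed beyond counting error (chi-square per gene of 12.5 to 205). GFP-hi replicate 2 and GFP-lo replicate 2 differed less from each other (26.5) than from libraries of their own population. There it was 190 and 196 for GFP-hi replicate 2 and 205 and 163 for GFP-lo replicate 2. The spread in the fit thus includes a shift that these 2 libraries share, and its cause was not tested.

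Genes with a mean of at least 1 RPKM (9351) were fitted on log2(RPKM + 1) with limma 3.58.1 (R 4.3.3, trended eBayes, two-sided, Benjamini-Hochberg over all 9351 genes). The model was also run on simulated data with the spread of the main fit and independent noise in each library. In 5 simulations with a log2 change of 1 in 200 genes, 96.3% of them were recovered and 3.87% of calls were false. Shifts shared between libraries were not simulated. Libraries were not paired, as the labels give no replicate numbers. Replicates were numbered in record order. The set and the lists were chosen with earlier results of these data known. Named genes are the set, called genes of the family lists with the most abundant of each, up to 5 called genes of each other list, the most abundant marker of each other cell type, and the 5 profiles nearest to Lgals1 and to Anxa2, and the reporter. Further genes (Cd44, Ptprc, Spn, Ahnak, Myh9, Crip1, Rptn, Itgam, Col3a1, Ctla4, Tubb5, the other cell cycle genes, Hspa1a and Hspa1b) and the ratios were chosen after their values were seen. Promoter windows are from RefSeq (GRCm38.p6). Alternatives changed the pseudocount (0.1, 0.5), filter (none, at least 5 RPKM), scaling, variance model, covariate and libraries. Figures were drawn with matplotlib 3.10.9.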

Additional observations from a re-analysis of the deposited data

How the results depend on the processing

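The genes of the set were chosen on this contrast, so their values under other settings are a description and support nothing. Over 18 alternatives the difference ran from 0.97 to 1.09 for Lgals1, from 0.95 to 1.28 for Anxa2, from 0.21 to 0.38 for S100a10 and from 0.13 to 0.19 for Anxa6. S100a11 changed sign in 1 and Anxa5 in 5. With array quality weights 4 genes of the set lay past the threshold and with the handling covariate 3, against 2. S100a10 lay past it in 2 of the 18 alternatives and Anxa6 in 1. Overlapping neighbours in the order of levels numbered 2 in every alternative tried. Of the other family genes none was called by limma except S100a13 with the handling covariate (1 gene, adjusted p = 0.042). The 18 called genes of the partner, ligand, antigen-experience, cell cycle and handling lists (67 tested) became 9 at a minimum of 5 RPKM, 28 with array quality weights, 11 without the 2 libraries high in heat-shock genes, and 11 to 16 when 1 library was left out, the fewest without GFP-lo replicate 2. Over all genes 369 were called (230 higher, 139 lower). There were 202 (119 and 83) at a minimum of 5 RPKM, 1282 (783 and 499) with array quality weights, 829 (560 and 269) with the handling covariate and 101 (52 and 49) without the 2 libraries high in heat-shock genes. Leaving out 1 library gave 133 to 315 genes (71 to 187 higher, 59 to 128 lower), with 153 and 186 on leaving out GFP-hi replicates 1 and 3, and 235, 133 and 157 on leaving out GFP-lo replicates 1, 2 and 3. Trimmed mean of M values scaling gave 201 higher and 186 lower genes. The median difference of all genes was 0.018, and from -0.0065 to 0.013 under the 3 other scalings. The limma adjusted p of Ndrg1 reached 0.056, of Smo 0.065 and of Sox4 0.094 without the 2 libraries high in heat-shock genes, and that of Sox4 0.060 without GFP-hi replicate 1. The cause was not tested. No paired analysis was possible because the labels carry no replicate numbers, and record order, from which replicates were numbered, pairs no libraries. Depth limits Anxa1 and, less so, Anxa2.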
